A study of Homo sapiens with 6 samples.

Results

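The 15 genes of the mitochondrial chromosome in the deposited table, chosen as all rows whose gene name starts with MT-, were followed in KYSE-150 cells, a human line established from a squamous cell carcinoma of the oesophagus. They are 2 ribosomal RNA (rRNA) genes and 13 protein-coding genes of 50868 genes in the table, and every row located on the mitochondrial chromosome was among them. Mitochondrial transfer RNA genes were not analysed here. Of the 6 libraries, 3 (nc) came from KYSE-150 cells that the series text calls wild type and 3 (siZNF514) from cells that the labels give as knockout ZNF514 (siZNF514). Both groups were grown alike, in RPMI 1640 with 10% serum, and the labels give neither the treatment of the nc cells nor the time after treatment, and do not say whether replicates were grown as separate cultures. The p-values therefore measure only the spread between these libraries, which may be technical.

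The human mitochondrial genome is a small circle transcribed from both strands as long precursors that carry many genes each. Transfer RNAs lie between most of the rRNA and protein genes, and their excision releases the individual RNAs, so that genes of 1 precursor can still differ in level through processing and decay. The proteins are the core membrane subunits of respiratory complexes I, III and IV and of ATP synthase (complex V), whose other subunits are encoded in the nucleus and imported. Most mitochondrial messenger RNAs (mRNAs) carry a short poly(A) tail, which for several of them completes the stop codon.

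The libraries held 12175259 to 14318909 counts, and each member had at least 316 counts in every library, so all 15 passed the filter on low counts. ZNF514 stood at 27.3% of its nc level in siZNF514 (log2 fold change -1.87, SE 0.14, edgeR adjusted p = 5.77e-05). Epithelial and keratinocyte markers were present, with 12 of 12 tested and a summed level of 5003 to 5357 CPM (counts scaled by library size) in nc and 5669 to 6595 CPM in siZNF514. Of these markers 3 rose, among them the keratin gene KRT18 (0.77) and EPCAM (0.41). Another 4 fell, among them the keratin gene KRT6A (-2.16) and PERP (-0.56), and the median of the 12 was -0.19. These counts are near the shares of all genes tested, of which 25.5% were higher and 25.1% lower. Replicate 3 of siZNF514 stood apart in RNAs of other kinds: the collagen gene COL3A1 had 112 counts there against 0 to 5 in the others, and the signal recognition particle RNA RN7SL2 had 399 against 5 to 18. MYC, a transcription factor gene, had 465 counts in it against 11 to 29 elsewhere. Summed fibroblast markers were at 11.7 to 13.4 CPM in nc and 14.1 to 40.2 CPM in siZNF514, with 2 of 7 tested. Immune markers, of which CD68 made up most, summed to 58.3 to 69.9 and 49.2 to 58.5 CPM, and endothelial markers to 3.16 to 3.31 and 1.96 to 2.57 CPM. The mitochondrial results were the same in count without that library, with 2 genes higher and 9 lower.

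3 pairs of neighbouring genes overlap on the chromosome, and they are shown because reads from the shared bases belong to both genes. The sequences are those of the annotated GENCODE 29 transcripts on GRCh38, whose start and end positions equal the deposited ones for 15 of 15 members. They are written 5′ to 3′ on the plus strand with the shared bases in capitals, and span MT:8497-8602, MT:9177-9237 and MT:10730-10796.
MT-ATP8 and MT-ATP6: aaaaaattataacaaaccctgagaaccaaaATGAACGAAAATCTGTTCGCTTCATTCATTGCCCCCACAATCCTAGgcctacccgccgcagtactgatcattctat
MT-ATP6 and MT-CO3: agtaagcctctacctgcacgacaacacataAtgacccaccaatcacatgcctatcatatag
MT-ND4L and MT-ND4: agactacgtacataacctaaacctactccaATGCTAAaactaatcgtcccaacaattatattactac
The shared stretches are 46, 1 and 7 bases long. Each begins inside the upstream gene with the start of the downstream one, and MT-ATP8 with MT-ATP6, and MT-ND4L with MT-ND4, are known to be carried on 1 mRNA each. Of the 13 protein-coding genes, 7 end in a complete stop codon of the mitochondrial code and 6 end in only its first 1 or 2 bases.

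Per unit length, the members other than MT-ND6 (rank 375 in nc and 571 in siZNF514) were among the most abundant transcripts of the table. In nc they took 9 of the 10 highest mean FPKM values (fragments scaled by gene length and library size, as deposited), and 7 of 10 in siZNF514. The order in nc ran from MT-CO1 (8722 ± 81.5 FPKM, SD, n = 3) through MT-ATP8 (5980 ± 93.4), MT-CO3 (5619 ± 89.5), MT-CO2 (5070 ± 88.1), MT-RNR2 (4759 ± 61.4), MT-ND4 (4538 ± 28.8) and MT-ND4L (3717 ± 46.2) to MT-RNR1 (2978 ± 39.2). Below these came MT-CYB (2447 ± 26.0), MT-ND2 (2253 ± 50.4), MT-ND1 (1487 ± 39), MT-ND5 (842 ± 4.94), MT-ATP6 (635 ± 22.7), MT-ND3 (581 ± 41.8) and, last, the minus-strand gene MT-ND6 (68.3 ± 3.97). Of the neighbours in this order, only MT-ATP6 and MT-ND3 had overlapping libraries in nc. In siZNF514, MT-CO1 was again the first (5601 ± 106 FPKM) and MT-ND6 the last (51 ± 5.33 FPKM), while MT-RNR2 moved from the fifth place to the second (5138 ± 193 FPKM) and MT-ND3 from the last but one to the eleventh (947 ± 106 FPKM).

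**Figure D1:**
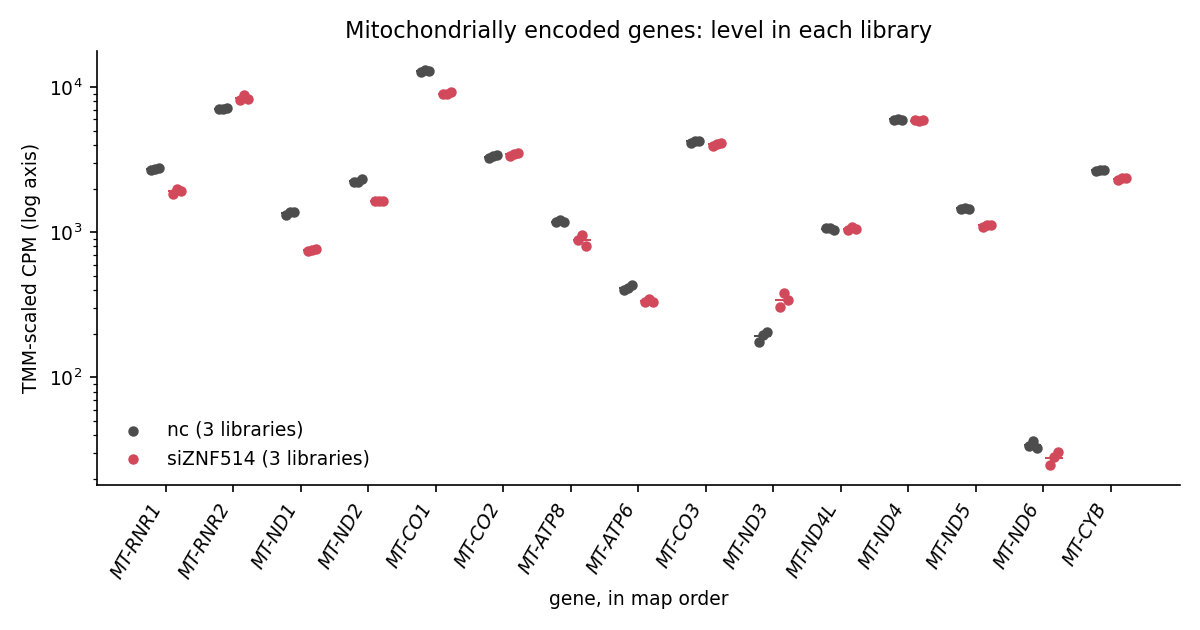
Level of each mitochondrially encoded gene in each library, as TMM-scaled CPM on a log axis, with genes in map order, 1 point per library and a short line at each group mean (nc grey, siZNF514 red, 3 libraries each). MT-ND1 and MT-CO1 are lower and MT-ND3 is higher in all 3 siZNF514 libraries, and MT-ND6 is the least abundant in both groups.

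The chromosome as a whole took a smaller share of the siZNF514 libraries. The members held 4.84%, 4.91% and 4.93% of all counts in nc and 3.89%, 3.98% and 3.95% in siZNF514, so the groups did not overlap (4.89 ± 0.0438% and 3.94 ± 0.0454%, SD, n = 3). Summed by RNA class, the difference lay in the mRNAs. These made up 3.87 ± 0.0376% of counts in nc and 2.95 ± 0.0253% in siZNF514, a difference of -23.6%. In TMM-scaled CPM the difference was smaller, -16.7% for the mRNAs and -12.2% for all 15 genes, again with no overlap between groups. The rRNAs stood at 1.02 to 1.04% of counts in nc and 0.96 to 1.02% in siZNF514 and overlapped. Their sum joins MT-RNR1, which fell, and MT-RNR2, which rose (log2 fold changes -0.51 and 0.24). Per 100 nuclear counts the rRNAs stood at 1.070 to 1.095 in nc and 0.999 to 1.066 in siZNF514, where the groups did not overlap (log2 ratio -0.07). In TMM-scaled CPM the sign of the rRNA sum turned (9838 ± 141 in nc and 10301 ± 394 in siZNF514, log2 ratio 0.07), and the groups overlapped. The direction of the rRNA sum therefore depends on the scaling. By complex, the share was 1.29 ± 0.00809% and 1.03 ± 0.0022% for complex I, 0.279 ± 0.00297% and 0.224 ± 0.0037% for complex III, 2.13 ± 0.0247% and 1.58 ± 0.0285% for complex IV, and 0.167 ± 0.00209% and 0.117 ± 0.00811% for complex V. By strand, it was 4.89 ± 0.0438% and 3.93 ± 0.0452% for the 14 plus-strand genes and 0.00358 ± 0.000209% and 0.00268 ± 0.00028% for the minus-strand gene. The groups overlapped for none of these sets. Single genes weighed unequally in the sums: MT-CO1 alone held 27.5 ± 0.122% of mitochondrial counts in nc and 21.9 ± 0.477% in siZNF514. These sums over the members are given without a test, and a share of counts does not tell less mitochondrial RNA per cell from fewer cells rich in it, or from more RNA of other genes.

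**Figure D2:**
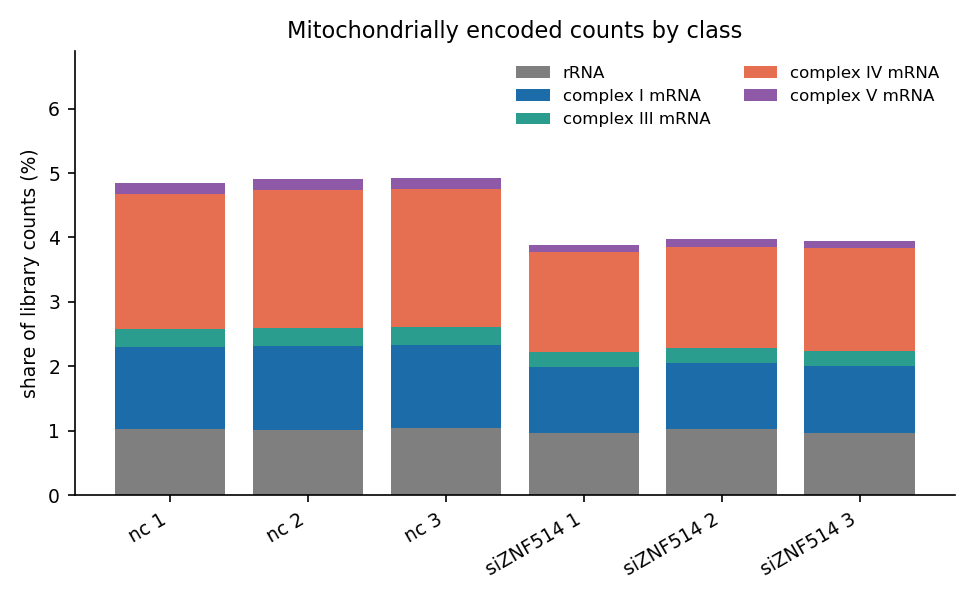
Share of all counts of a library that fell on mitochondrially encoded genes, in percent, stacked by rRNA and by the respiratory complex of the encoded protein, 1 bar per library. The 3 nc bars reach 4.84 to 4.93% and the siZNF514 bars 3.89 to 3.98%, with the rRNA part similar in both.

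Gene by gene, 9 of 15 members fell, 2 rose and 4 did not pass. The threshold was 0.05 on the p-value of edgeR's quasi-likelihood test after Benjamini-Hochberg adjustment over 14250 genes. Over all genes tested, 50.6% passed, 25.5% higher and 25.1% lower, and the median log2 fold change was -0.01 against -0.30 for the members. CPM values of the groups did not overlap for 13 of 15 members, against 60.3% of all genes tested. No member changed by 2-fold or more, with log2 fold changes from -0.86 for MT-ND1 to 0.83 for MT-ND3. Fold changes are relative to the bulk of genes. TMM factors were 1.04 to 1.05 in nc and 0.954 to 0.962 in siZNF514. With libraries scaled by total counts alone the median of all genes was -0.14, with 2493 genes higher and 4775 lower (3629 and 3583 with TMM), and 13 members fell and 2 rose.

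**Figure D3:**
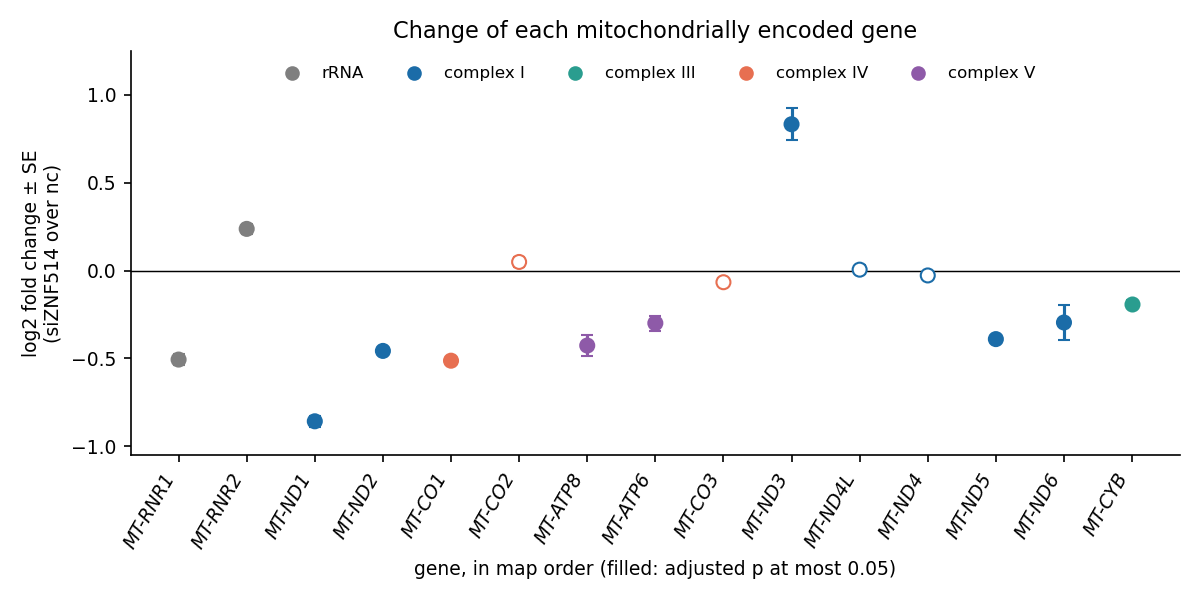
Log2 fold change (siZNF514 over nc) of each mitochondrially encoded gene, in map order, with the standard error as bars (hidden where smaller than the point), coloured by rRNA or respiratory complex, filled where the adjusted p was at most 0.05. Neighbours differ: MT-RNR1 lies at -0.51 beside MT-RNR2 at 0.24, and MT-ND3 at 0.83 between MT-CO3 at -0.07 and MT-ND4L at 0.01.

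The 2 rRNAs, which lie next to each other and are made from the same strand, moved in opposite directions. MT-RNR1 (ENSG00000211459, MT:648-1601, plus strand), the 12S rRNA of the small mitochondrial ribosomal subunit, was at 2685, 2719 and 2769 CPM in nc and 1840.2, 1974 and 1939.8 CPM in siZNF514. It fell by 0.51 on the log2 scale (SE 0.03, edgeR adjusted p = 2.66e-05). MT-RNR2 (ENSG00000210082, MT:1671-3229, plus strand), the 16S rRNA of the large subunit, was at 7056, 7054 and 7229.8 CPM in nc and 8148, 8769 and 8232 CPM in siZNF514. It rose, by 0.24 (SE 0.03, edgeR adjusted p = 0.000526), and by 0.11 with total counts alone (adjusted p = 0.0119). The groups of neither rRNA overlapped. The FPKM of MT-RNR2 was 1.6 ± 0.0102 times that of MT-RNR1 in nc and 2.68 ± 0.0679 times in siZNF514. An exact two-sided permutation test of this ratio gave p = 0.1, which is the lowest value that 3 against 3 libraries can give (0.16 after Benjamini-Hochberg adjustment over the 8 ratios examined). Of 18 symbols of nuclear RNAs that lack a poly(A) tail, 7 had a row in the table, and only RN7SL2 had enough counts to test (edgeR adjusted p = 0.0514). Those with a row summed to 0.947 to 1.40 CPM in nc and 1.57 to 42.7 CPM in siZNF514. Genes without counts keep a row in the table (24873 of them), so symbols without a row were not measured. The labels give total RNA as the molecule and 1 µg mRNA as the input of reverse transcription. They name no step of poly(A) selection or rRNA removal. Levels of the rRNAs, and of the other members such as MT-ND6, are therefore levels of what the library method captured.

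Complex I, the entry point of electrons from NADH, has 7 mitochondrial subunits, and they split, with 4 lower, 1 higher and 2 not past. Of all genes tested 25.5% were higher and 25.1% lower, against which the counts in the other complexes are also to be read. MT-ND1 (ENSG00000198888, MT:3307-4262) had the largest fall of all members. It was at 1317, 1387 and 1385 CPM in nc and 738, 757 and 762 CPM in siZNF514, a log2 fold change of -0.86 (SE 0.03, edgeR adjusted p = 5.3e-06), or 0.552 of the nc level. Its downstream neighbour MT-ND2 (MT:4470-5511) was at 2218, 2221 and 2313 CPM in nc and 1651, 1632 and 1636 CPM in siZNF514, and fell less (-0.46, SE 0.02, edgeR adjusted p = 1.68e-05). The FPKM ratio of MT-ND2 to MT-ND1 accordingly was 1.52 ± 0.0409 in nc and 2 ± 0.0446 in siZNF514, with no overlap (exact permutation p = 0.1).

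MT-ND3 (ENSG00000198840, MT:10059-10404), another complex I subunit, was the only mRNA of the chromosome that rose. Its counts were 2277, 2795 and 2599 in nc and 3890, 5010 and 4631 in siZNF514. This corresponds to 177, 196 and 205 CPM against 305, 384 and 339 CPM, with every siZNF514 library above every nc library. The log2 fold change was 0.83 (SE 0.09, edgeR adjusted p = 0.00035), or 1.78 times the nc level. The next genes on the same strand, MT-ND4L (MT:10470-10766) and MT-ND4 (MT:10760-12137), did not pass. MT-ND4L was at 1063, 1067 and 1045 CPM in nc and 1044, 1086 and 1056 CPM in siZNF514 (0.01, SE 0.03, edgeR adjusted p = 0.883). MT-ND4 was at 5957, 6050.1 and 5979 CPM against 5926, 5812 and 5903 CPM (-0.03, SE 0.01, edgeR adjusted p = 0.153). Libraries of the groups overlapped for MT-ND4L and not for MT-ND4. With total counts alone both fell, MT-ND4L by 0.12 and MT-ND4 by 0.15 on the log2 scale. The FPKM ratio of MT-ND3 to MT-ND4 was 0.128 ± 0.00926 in nc and 0.232 ± 0.0292 in siZNF514, again with no overlap (exact permutation p = 0.1).

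Downstream of MT-ND4 on the plus strand, MT-ND5 (MT:12337-14148), the largest complex I subunit of the set, was at 1456, 1474 and 1457 CPM in nc and 1093, 1126 and 1129 CPM in siZNF514. It fell, by 0.39 on the log2 scale (SE 0.02, edgeR adjusted p = 2.77e-05), with no overlap between groups. MT-ND6 (ENSG00000198695, MT:14149-14673), the only member on the minus strand, lies end to end with it. Its transcript is rich in G (35.6% of bases, against 6.28 to 19.0% in the other members). MT-ND6 had 436, 522 and 414 counts in nc and 316, 370 and 421 in siZNF514, or 33.8, 36.6 and 32.7 CPM against 24.8, 28.4 and 30.9 CPM. It fell by 0.30 on the log2 scale (SE 0.10, edgeR adjusted p = 0.0392), a call that was lost when nc replicate 1, 2 or 3 or siZNF514 replicate 1 or 2 was left out (log2 fold changes -0.21 to -0.33, adjusted p 0.0548 to 0.116). Whether counting used strand is not given, so reads of MT-ND6 cannot be told from antisense RNA of the opposite strand. The ratio of MT-ND5 to MT-ND6 in FPKM overlapped between groups (12.4 ± 0.637 and 11.6 ± 1.09, exact permutation p = 0.4).

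MT-CYB (ENSG00000198727, MT:14747-15887), cytochrome b of complex III, was the only mitochondrial subunit of that complex and changed modestly. It was at 2636, 2706 and 2690.2 CPM in nc and 2290.0, 2381 and 2370.1 CPM in siZNF514. The groups did not overlap, and the log2 fold change was -0.19 (SE 0.02, edgeR adjusted p = 0.000478). Within the mitochondrial counts its share overlapped between groups (5.71 ± 0.0278% and 5.7 ± 0.0317%).

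Of the 3 catalytic core subunits of complex IV, cytochrome c oxidase, 1 fell. MT-CO1 (ENSG00000198804, MT:5904-7445), which holds the oxygen-reducing haem and copper centre, was the most abundant member. It was at 12714, 13020.0 and 12951 CPM in nc and 8921, 8934 and 9258 CPM in siZNF514, and fell by 0.51 on the log2 scale (SE 0.02, edgeR adjusted p = 5.3e-06). MT-CO1 alone held 27.5 ± 0.122% of mitochondrial counts in nc and 21.9 ± 0.477% in siZNF514. MT-CO2 (MT:7586-8269), which receives electrons from cytochrome c, was at 3249.8, 3344 and 3381 CPM in nc and 3333, 3467 and 3519 CPM in siZNF514. The groups overlapped and the difference did not pass (0.05, SE 0.03, edgeR adjusted p = 0.158), and its sign turned with total counts alone (-0.08, adjusted p = 0.0254). MT-CO3 (MT:9207-9990) was at 4132, 4259.9 and 4281 CPM in nc and 3922, 4066 and 4115 CPM in siZNF514, which missed the threshold (-0.07, SE 0.02, edgeR adjusted p = 0.0524). MT-CO3 was lower in each of the 18 alternatives and passed in 9 of them, among them total counts alone (-0.19, edgeR adjusted p = 0.000316), the replicate block (-0.07, edgeR adjusted p = 0.0212) and the fit without nc replicate 1 (-0.08, edgeR adjusted p = 0.0424). MT-CO2 passed as higher without siZNF514 replicate 1 (0.08, edgeR adjusted p = 0.0284). The FPKM ratio of MT-CO1 to MT-CO2 was 1.72 ± 0.0191 in nc and 1.17 ± 0.0221 in siZNF514, and that of MT-CO1 to MT-CO3 was 1.55 ± 0.0132 and 1.14 ± 0.02. Neither ratio overlapped between groups (exact permutation p = 0.1 each).

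The pair of complex V subunits, parts of the membrane sector of ATP synthase, were both lower. For MT-ATP6 this holds for its own row and not for its sum with a nuclear copy. MT-ATP8 (ENSG00000228253, MT:8366-8572) was at 1175, 1210.3 and 1176 CPM in nc and 887, 956 and 806 CPM in siZNF514 (-0.43, SE 0.06, edgeR adjusted p = 0.000885). MT-ATP6 (ENSG00000198899, MT:8527-9207), which forms the proton channel with the rotating ring, was at 400, 413 and 431 CPM in nc and 332, 349 and 329 CPM in siZNF514 (-0.30, SE 0.04, edgeR adjusted p = 0.0011). The libraries of the groups did not overlap for either gene. Although both are read from 1 mRNA, MT-ATP8 stood 9.43 ± 0.399 times above MT-ATP6 in FPKM in nc and 8.62 ± 0.497 times in siZNF514, overlapping between groups (exact permutation p = 0.2). The other joint mRNA showed no such gap, with MT-ND4 at 1.22 ± 0.0126 times MT-ND4L in nc and 1.19 ± 0.0367 times in siZNF514 (exact permutation p = 0.3). The source of the gap between MT-ATP8 and MT-ATP6 was not tested, so neither FPKM value need give the level of their joint mRNA.

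Nuclear chromosomes carry old insertions of mitochondrial DNA, listed in the table as pseudogenes, and near-identical ones could share reads with the members. Of 380 such rows, 50 had a count and 7 had enough to test, and together they held 0.666 to 1.41% as many counts as the members. MTATP6P1 (chromosome 1, 633696 to 634376), with 98.5% identity to MT-ATP6 over 681 bases and 10 mismatches, had 92, 5056 and 96 counts in nc and 3780, 3892 and 3966 in siZNF514. Nc replicate 2 thus stood with the siZNF514 libraries and apart from the other nc libraries (log2 fold change 1.26, SE 1.27, edgeR adjusted p = 0.442). The row of MT-ATP6 did not follow the copy within nc, with 413 CPM in replicate 2 between 400 and 431 CPM in replicates 1 and 3. Whether the rows shared reads was not tested. The window of 60 bases with the most differences between gene and copy is shown to give the scale of the similarity, with the 3 differing bases in capitals (MT:8642-8701 and chromosome 1, 633811 to 633870, GRCh38, plus strand).
MT-ATP6: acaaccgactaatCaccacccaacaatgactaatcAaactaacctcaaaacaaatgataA
MTATP6P1: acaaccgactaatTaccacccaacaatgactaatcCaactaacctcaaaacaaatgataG
The longest stretch identical in both was 141 bases. With the counts of both rows added, the level was 407, 767 and 439 CPM in nc and 628, 648 and 620 CPM in siZNF514, which overlap, and the sign of MT-ATP6 turned (0.23, SE 0.22, edgeR adjusted p = 0.417). The fall of MT-ATP6 therefore holds only for reads that the authors' counting gave to the mitochondrial row. MTND2P28 (chromosome 1, 629640 to 630683; 98.2% identity to MT-ND2) had 3345, 3853 and 3639 counts in nc and 2585, 3010 and 3184 in siZNF514 (-0.29, SE 0.07, edgeR adjusted p = 0.00885). It took 10.5 to 12.5% of the joint counts with MT-ND2 in the 6 libraries, and MT-ND2 with its copy added still fell (-0.44, SE 0.02, edgeR adjusted p = 2.15e-05). MTND4P12 (chromosome 5; 95.6% identity to MT-ND4) had 286 to 421 counts in a library, and MTND5P11 had 20 to 46. Adding copies changed the call of no member other than MT-ATP6.

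Seen within the mitochondrial counts, the summed rRNAs took a larger share in siZNF514, and this lay in MT-RNR2. The rRNAs held 21.1%, 20.7% and 21.1% of them in nc and 24.7%, 25.7% and 24.6% in siZNF514, with no overlap between groups. MT-RNR2 held 15.2 ± 0.177% and 20.3 ± 0.6%, while MT-RNR1 held 5.81 ± 0.0434% and 4.65 ± 0.0941%, the opposite order. Shares of MT-CO2, MT-CO3, MT-ND3, MT-ND4L and MT-ND4 were higher in siZNF514 with no overlap, such as 12.8 ± 0.129% and 14.3 ± 0.36% for MT-ND4. Complex I mRNAs held 26.3 ± 0.0922% and 26.3 ± 0.357%, which overlapped, those of complex IV went from 43.6 ± 0.152% to 40.1 ± 0.657%, and those of complex V from 3.41 ± 0.0248% to 2.96 ± 0.199%. The complex IV difference was carried by MT-CO1: among mitochondrial mRNA counts the share of complex IV was lower in siZNF514 (55.1 ± 0.108% and 53.4 ± 0.532%), and without MT-CO1 it was higher (log2 ratio 0.13).

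Across the 15 members the log2 fold change showed no close relation to simple features of the genes. Spearman's rho was -0.20 with length, -0.33 with GC content, -0.01 with FPKM in nc and 0.35 with map order. Pearson's r was largest in size with GC content (-0.47), and 15 genes are too few to call a relation of that size absent. These are descriptions over genes that share the same libraries and partly the same precursor RNA.

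Subunits of the same complexes that are encoded in the nucleus showed the opposite balance. Over all genes tested 25.5% were higher and 25.1% lower. Among 37 nuclear subunits of complex I, 26 rose and 1 fell (median log2 fold change 0.34). All 9 of complex III rose (0.50), as did all 11 of complex IV (0.68), and 11 of 16 of complex V rose with none lower (0.45). With total counts alone the numbers higher and lower were 19 and 1, 7 and 0, 11 and 0, and 9 and 1. In that setting 2493 of all 14250 genes tested were higher and 4775 lower. The 7 mitochondrial members of complex I had a median of -0.30, MT-CYB lay at -0.19, and the medians for complexes IV and V were -0.07 and -0.36. Examples are COX8A (116 ± 2.37 to 207 ± 9.56 CPM), COX7B (56.0 ± 0.99 to 90.9 ± 4.43 CPM) and COX7C (77.3 ± 4.01 to 124 ± 3.75 CPM), small nuclear subunits of cytochrome c oxidase, and UQCRC2 (223 ± 5.18 to 373 ± 16.1 CPM), a core protein of complex III. NDUFS5 of complex I (70.3 ± 3 to 115 ± 5.41 CPM) and ATP5F1C, the central stalk subunit of ATP synthase (233 ± 3.71 to 320.2 ± 4.72 CPM), rose as well (edgeR adjusted p of at most 8.96e-05 for all of these). The nuclear and mitochondrial sets were not tested against each other.

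**Figure D4:**
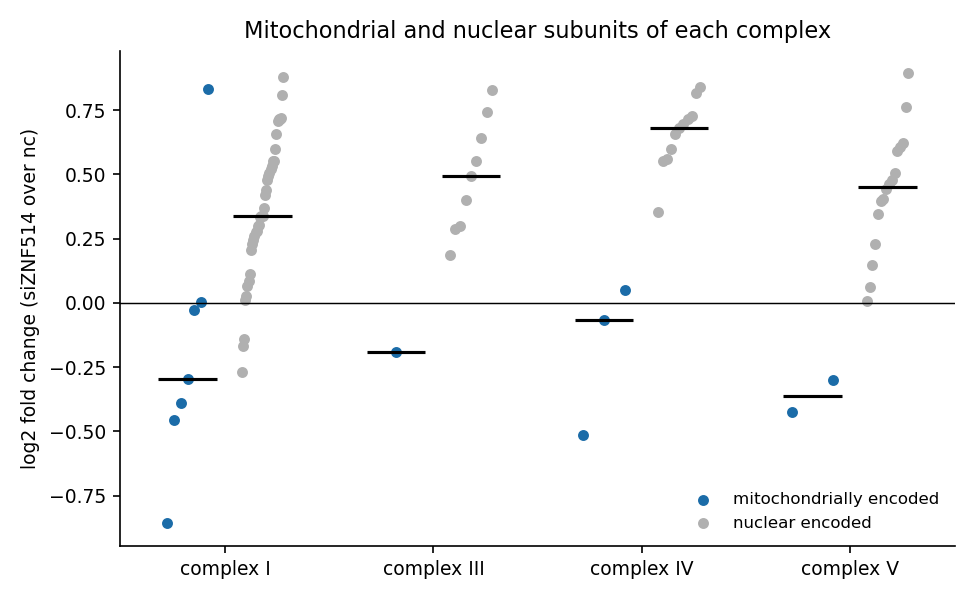
Log2 fold change (siZNF514 over nc) of mitochondrially encoded (blue) and nuclear encoded (grey) subunits of complexes I, III, IV and V, 1 point per gene sorted within each set, with a black line at the median. The nuclear medians lie between 0.34 and 0.68 and the mitochondrial ones between -0.36 and -0.07.

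Nuclear genes that transcribe and maintain the mitochondrial genome were called higher as often as lower, as were all genes (25.5% and 25.1%): of 21 tested, 7 rose, 7 fell and 7 did not pass (median -0.10, or -0.23 with total counts alone). POLRMT, the mitochondrial RNA polymerase, rose from 100.3 ± 4.12 to 141 ± 1.19 CPM (0.49, SE 0.05, edgeR adjusted p = 0.000174). TFAM, which packages mitochondrial DNA and opens its promoters, fell from 158 ± 6.78 to 127 ± 6.42 CPM (-0.32, SE 0.06, edgeR adjusted p = 0.00297). TFB2M, the initiation factor that works with the polymerase, fell from 109 ± 1.77 to 94.2 ± 4.32 CPM (-0.22, SE 0.05, edgeR adjusted p = 0.00949). TFB1M, a methyltransferase that modifies the 12S rRNA, rose from 23.6 ± 0.593 to 49 ± 1.14 CPM (1.05, SE 0.06, edgeR adjusted p = 2.47e-05). The DNA polymerase gene POLG (0.45) and the topoisomerase gene TOP1MT (0.47) rose. The elongation factor TEFM (-0.17, SE 0.14) and MTERF1, which binds just beyond the 16S rRNA gene (-0.49, SE 0.26), did not pass, with edgeR adjusted p of 0.316 and 0.16.

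Of 30 measured genes of mitochondrial RNA processing and decay, 7 rose, 9 fell and 14 did not pass. This is again near the shares of all genes tested (25.5% higher and 25.1% lower), against which the next 2 lists are also to be read. The median of 0.04 turned to -0.08 with total counts alone. LRPPRC, which stabilises mitochondrial mRNAs and promotes their polyadenylation, rose from 273 ± 4.82 to 388 ± 3.04 CPM (0.51, SE 0.03, edgeR adjusted p = 3.59e-05). Its partner SLIRP did not pass (0.14, SE 0.20, edgeR adjusted p = 0.59), nor did TRMT10C, a subunit of the enzyme that cuts the 5′ ends of mitochondrial transfer RNAs (-0.15, SE 0.06, edgeR adjusted p = 0.0627). ANGEL2 (-0.94), PTCD1 (-0.95) and the helicase gene DDX28 (-1.31) fell. Of 24 genes of mitochondrial RNA modification, 4 rose and 6 fell (median -0.07), against 2 and 9 with total counts alone (median -0.20). Total counts alone also shifted the background, with 2493 of 14250 genes tested higher and 4775 lower (median -0.14). The modification genes included TRNT1, which adds the terminal CCA to transfer RNAs (-0.57), and CDK5RAP1 (0.40) and YRDC (0.24), which modify transfer RNAs. Among 8 measured regulators of mitochondrial gene expression in the nucleus, 1 rose (GABPA, 0.50) and 1 fell (PPRC1, -0.33), while MYC (2.72, SE 1.34, edgeR adjusted p = 0.13), high in siZNF514 replicate 3 alone, and YY1 (-0.11, SE 0.07, edgeR adjusted p = 0.258) did not pass.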

How the data were processed

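RNA sequencing of 6 libraries was deposited as 1 table. Per the labels' protocols, RNA was extracted with TRIzol and a VAHTS V6 kit served for library preparation. Tools named in the submitters' processing notes are StringTie 1.3.3b, HISAT2 2.0.4 and edgeR, with the build hg38. For strand, annotation release and multiply mapped reads, the settings were not given in the sources used. The deposited counts were whole numbers per gene. The deposited FPKM values are scaled by gene length and library size, as the unit implies, and served for levels and for alternatives. The counts were filtered with filterByExpr (minimum count 10, minimum total 15) and scaled by TMM. The contrast of siZNF514 with nc used the quasi-likelihood F test of edgeR 4.0.16 (R 4.3.3), with Benjamini-Hochberg adjustment over 14250 genes and a threshold of 0.05. The SE is the log2 fold change divided by the square root of F. CPM are TMM-scaled. At these depths the number of libraries, more than counting error, limits precision. No replicates agreed within sampling noise (chi-square per degree of freedom 7.97 to 9.97). Alternatives used DESeq2 1.42.0 and limma 3.58.1, other scalings and filters, a replicate block and each library left out.

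The rule for named genes took every member, ZNF514, 8 set nuclear genes and up to 4 genes with the smallest p-value of each list, of which those that bear on the members are given. It also took the 4 pseudogenes with the highest mean count. COL3A1 was chosen after its values were seen. Nuclear lists and markers were written by hand. Members and lists were chosen with earlier results of these data known.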

Additional observations from a re-analysis of the deposited data

How the results depend on the processing

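Across 18 alternatives, MT-RNR1, MT-ND1, MT-ND2, MT-CO1, MT-ATP8, MT-ND3, MT-ND5 and MT-CYB kept their direction and passed in each, and MT-RNR2 did so in all but limma-trend with no filter on low FPKM. The last setting left 1 member higher, and 2209 of all genes higher. MT-ATP6 turned to 0.23 when the counts of nuclear copies were added, an alternative chosen after seeing the data. MT-CO2 turned to -0.078 with total counts alone and to -0.077 in each of the 4 limma-trend fits on FPKM. MT-ND4L turned to -0.12 in the same 5 fits, to -0.030 with a mean count of at least 50, to -0.0015 without nc replicate 3 and to -0.0047 without siZNF514 replicate 2, and its range with 1 library left out was -0.0047 to 0.027. With the ratio to nuclear counts in place of the share of all counts, the log2 change was -0.40 for mRNA and -0.33 for complex I, and the rRNAs no longer overlapped between groups. In TMM-scaled CPM it was -0.26 for mRNA and -0.19 for complex I, and 0.07 for the rRNAs, which overlapped. Without MT-CO1, the share of mitochondrial mRNA counts turned to -0.046 for complex I, -0.044 for complex III and 0.13 for complex IV, and was -0.25 for complex V. The cause was not tested, except that MT-CO1 is by construction the gene removed. With the replicate block, 2 members were higher and 9 lower, 3356 of all genes were higher and 3284 lower, MT-ND6 no longer passed (-0.30, adjusted p = 0.0598) and MT-CO3 passed (-0.07, adjusted p = 0.0212). Deviations of same-numbered libraries correlated at -0.0358 to 0.0413, and not every library correlated best with its own number, so the numbers were not taken as pairs. Leaving out 1 library gave 2 to 3 members higher and 8 to 9 lower.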
